A study of Mus musculus with 2 samples.

Results

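Histone deacetylases, sirtuins, lysine demethylases, lysine methyltransferases, arginine methyltransferases and lysine acetyltransferases are the enzymes that write and erase marks on histone tails. The genes described here are the 55 annotated autosomal protein-coding mouse genes whose symbol is Kdm, Kmt, Hdac, Sirt, Prmt or Kat followed by a number and an optional letter, out of 20360 autosomal protein-coding genes with a known strand. They comprise 15 Kdm, 8 Kmt, 9 Hdac, 7 Sirt, 8 Prmt and 8 Kat genes. A gene's window ran from 10 kb upstream of its annotated 5' end to its 3' end on mm10, and a gene had a peak when the summit of a TCF12 peak lay in that window. A summit within 1 kb of the 5' end was called a promoter summit.

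The study mapped TCF12 by chromatin immunoprecipitation and sequencing in CH12.LX, an immortalized B-cell lymphoma line from a female mouse of strain B10.H-2aH-4bp/Wts. There was 1 group of 2 biological replicates of this line and no other group, so every value below is a description with no test. Peaks came from the optimal list, the authors' set of 35848 peaks kept by an irreproducible discovery rate (IDR) step, which retains peaks whose ranks repeat. The signal is the authors' peak caller's own value per peak, it has no stated scaling, and the read depth behind it is unknown.

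TCF12, also known as HEB, belongs with the products of Tcf3 and Tcf4 to the E proteins, a class of basic helix-loop-helix transcription factors. E proteins bind as dimers to the E-box, CANNTG, and are needed for early B and T lymphocyte development. Their activation domains contact CBP-type acetyltransferases, and E proteins can also recruit corepressors of the ETO family that carry histone deacetylases. The genes for such enzymes are described here as sites of TCF12 binding, and no expression was measured.

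The line was checked at B cell genes by their peaks. All 8 B cell markers examined had a peak, 7 of them at the promoter, with a median strongest signal of 164.5. Of 8 measured markers of T, myeloid and erythroid cells, 7 had a peak in the window and 0 had a promoter summit, with a median strongest signal of 37.8. The lists overlapped: the T cell marker Lck had 8 peaks and a strongest signal of 208, above 6 of the 8 B cell markers. The myeloid marker Itgam had 88.7, above the lowest B cell marker, Ms4a1, at 78.9.

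The windows of 6 peaks are shown because they lie in introns of the genes with the strongest gene-body binding. Each is the 101 bases around a summit of the authors' mm9 list, read from the NCBIM37 genome on the plus strand. Capitals mark the E-boxes CAGCTG and CACCTG, the latter reading CAGGTG on the opposite strand, and the 10-base MEF2 consensus site. The windows of Kdm2b, Sirt2 and Hdac5 are among the strongest mm9 peaks of all 55 genes. Those of Hdac7 were added after their sequences and values had been seen.
Kdm2b, chr5:123399315-123399415: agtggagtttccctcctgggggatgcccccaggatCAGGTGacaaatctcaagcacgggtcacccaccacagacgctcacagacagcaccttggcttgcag
Sirt2, chr7:29565930-29566030: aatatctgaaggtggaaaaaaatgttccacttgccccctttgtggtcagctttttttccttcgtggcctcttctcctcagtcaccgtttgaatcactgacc
Hdac5, chr11:102080243-102080343: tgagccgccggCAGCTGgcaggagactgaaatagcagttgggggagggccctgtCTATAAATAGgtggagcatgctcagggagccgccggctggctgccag
Hdac7, chr15:97655682-97655782: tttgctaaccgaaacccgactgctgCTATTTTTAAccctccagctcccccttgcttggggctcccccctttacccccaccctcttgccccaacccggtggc
Hdac7, chr15:97656506-97656606: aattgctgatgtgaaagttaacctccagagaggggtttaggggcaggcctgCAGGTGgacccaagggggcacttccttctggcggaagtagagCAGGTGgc
Hdac7, chr15:97651771-97651871: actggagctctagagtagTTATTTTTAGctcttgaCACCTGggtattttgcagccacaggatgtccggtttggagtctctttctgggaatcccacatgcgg
The Kdm2b window holds 1 E-box and the Sirt2 window holds none of the marked motifs. The Hdac5 window holds a CAGCTG and a MEF2 site. In Hdac7 the strongest window has a MEF2 site alone, the next has 2 E-boxes, and the third has both a MEF2 site and an E-box.

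Promoters are shown for 4 genes whose 5' end carried a summit, to set promoters with and without an E-box side by side. Each is the 150 bases before the transcription start, in the direction of transcription, from RefSeq on GRCm38.p6, the assembly behind mm10. Capitals mark the matches to the motifs searched on either strand, which here are CACGTG, the CREB half-palindrome TGACGT and the SP/KLF box GGGCGG.
Kdm5b, chr1:134560028-134560177, plus strand: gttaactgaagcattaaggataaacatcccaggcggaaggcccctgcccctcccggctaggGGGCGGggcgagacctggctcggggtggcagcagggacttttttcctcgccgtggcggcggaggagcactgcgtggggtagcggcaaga
Prmt6, chr3:110251000-110251149, minus strand: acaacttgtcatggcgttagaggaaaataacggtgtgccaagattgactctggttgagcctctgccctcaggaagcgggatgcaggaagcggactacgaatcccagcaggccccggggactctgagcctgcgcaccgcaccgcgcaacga
Prmt9, chr8:77549247-77549396, plus strand: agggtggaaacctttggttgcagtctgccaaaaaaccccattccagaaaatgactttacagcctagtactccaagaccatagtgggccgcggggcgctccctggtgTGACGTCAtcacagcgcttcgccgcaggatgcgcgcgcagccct
Sirt1, chr10:63339036-63339185, minus strand: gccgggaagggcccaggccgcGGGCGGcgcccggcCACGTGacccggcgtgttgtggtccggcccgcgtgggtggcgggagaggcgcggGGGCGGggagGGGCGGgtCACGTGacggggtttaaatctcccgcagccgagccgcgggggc
The summit of Kdm5b, the highest promoter signal of the 55 genes, lay 16 bp before the start in a stretch whose only marked motif is a GGGCGG. The Prmt6 stretch holds none of the specific motifs searched, and the general pattern CANNTG was not marked in any stretch. The Prmt9 stretch has TGACGT on both strands as a palindrome, and the Sirt1 stretch has CACGTG at 2 places, starting 115 and 43 bases before the start.

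Binding at these genes was common. A summit lay in the window of 51 of the 55 genes, or 92.7% (95% Wilson interval 82.7 to 97.1), where 58.5% of all autosomal protein-coding genes had one. At the promoter the counts were 41 of 55, or 74.5% (61.7 to 84.2), against 41.6% of all genes. The intervals here and below cover counting error only. The 55 genes are also longer than most, with a median span of 38.4 kb against 17.6 kb for all genes, so the shares were set out by span. Among genes of up to 9.22 kb, 7 of 7 had a window summit against 39.8% of all genes of that length. Between 9.22 and 31.9 kb the counts were 16 of 17 against 65.5%, and above 31.9 kb they were 28 of 31 against 70.4%. At promoters, whose width does not depend on span, the members' counts in the same order were 5 of 7, 15 of 17 and 21 of 31, against 30.3%, 50% and 44.4% of all genes.

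**Figure D1:**
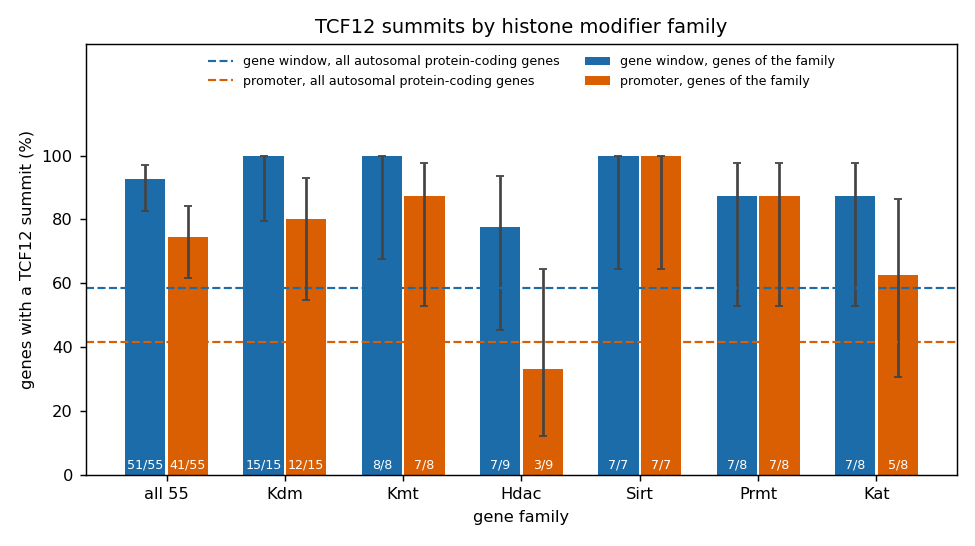
Share of genes with a TCF12 summit in the gene window (blue) and at the promoter (orange), in percent, for all 55 genes and for each family. Whiskers are 95% Wilson intervals, numbers are counts, and dashed lines give the shares of all autosomal protein-coding genes (58.5% and 41.6%). The Hdac family, at 3 of 9 promoters, is the only family whose promoter bar lies below its line. Promoters here are those at the outermost 5' end, and Hdac4 and Hdac7 had a summit near another annotated start.

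Measured from the outermost 5' end, the promoter counts varied between families. All 7 Sirt genes had a promoter summit, as did 7 of 8 Kmt, 7 of 8 Prmt, 12 of 15 Kdm and 5 of 8 Kat genes. The Hdac genes had a promoter summit at 3 of 9, namely Hdac1, Hdac2 and Hdac11, although 7 of the 9 had a summit in the window. With 7 to 15 genes a family these intervals are wide, at 12.1 to 64.6% for the Hdac promoters and 64.6 to 100% for the Sirt promoters, and the difference between families was not tested.

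Some of the promoter calls depended on which start was used. When every start in the RefSeq promoter table was allowed, 46 of 55 genes, or 83.6% (71.7 to 91.1), had a promoter summit against 44.9% of all genes. The table held 44 of the 55 genes, and the others were tried at their outermost 5' end only. The 5 genes gained were Hdac4, Hdac7, Kat5, Kdm4c and Kmt2d. The low promoter count of the Hdac genes thus depended in part on the start used. Of that family Hdac3, Hdac5, Hdac9 and Hdac10 had no optimal summit near any start tried. The table held no start for Hdac3 and Hdac10, so only their outermost 5' end was tried. In the mm9 list a summit of 34.2 lay 99 bp after the 5' end of Hdac10. Another, of 40.7, lay 20 bp before that of Hdac5. The strongest summit of Kdm4c lay 9.29 kb inside the gene but 92 bp before an annotated internal start, and that of Kat5 lay 1.53 kb inside and 63 bp after such a start.

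The 51 genes held 161 optimal peaks, with a median of 2 and up to 12 per gene. Of these, 64 (39.8%) were promoter summits, 25 (15.5%) lay further upstream and 72 (44.7%) lay in the gene body. Among peaks in the windows of all genes the shares were 38.6% promoter, 9.11% upstream and 52.3% gene body. These were classed by another rule: promoter of any gene first, then body of any gene, and upstream only if neither. Summits of the 55 genes were placed by their own gene alone, even where they lay inside a neighbour. The 2 sets of shares are thus not like for like, least of all upstream. Promoter summits had a median signal of 42.8, upstream summits 36.1 and gene-body summits 31.6. For all genes, under that other rule, the medians were 43.9, 31.5 and 32.1. The strongest peak of a gene was a promoter summit in 35 of the 51 genes (68.6%, 55 to 79.7), against 54.9% of all genes with a peak. It was an upstream summit in 3 (5.88%) against 15.5%, and a gene-body summit in 13 (25.5%) against 29.6%. The median strongest signal was 69.5 (interquartile range 42.9 to 93.0) in the 51 genes and 59.2 in all genes with a peak.

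A signal of 100 or more was reached by 10 of the 55 genes (18.2%, 10.2 to 30.3), where 11.7% of all genes reached it. Only a gene with a peak can reach it. Among genes with a peak the counts were 10 of 51 and 2377 of 11917, which are near equal shares. The 10 genes were Kdm2b, Kdm5b, Kat8, Hdac5, Sirt2, Kat6a, Hdac7, Kdm6b, Kdm1b and Prmt6. Genes with 5 or more summits numbered 11 of 55 (20%, 11.6 to 32.4) against 7.65% of all genes. Neighbouring summits can sit on shoulders of the same region, and 40 of the 161 summits lay within 250 bp of another. Counted as groups of such summits there were 141, and 9 of 55 genes (16.4%) held 5 or more groups against 6.23% of all genes. Longer windows can hold more summits, the 55 genes are longer than most, and neither count was split by span. Per 10 kb of window there were 0.379 summits in the 55 genes against 0.266 in all genes. By family this pooled density ran from 0.220 in Hdac to 1.30 in Sirt genes. The Hdac value includes Hdac9, with a span of 870 kb and no optimal peak. Taken as the median over genes, the density was 0.649 in Hdac, 1.57 in Sirt and lowest in Prmt genes, at 0.242.

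**Figure D2:**
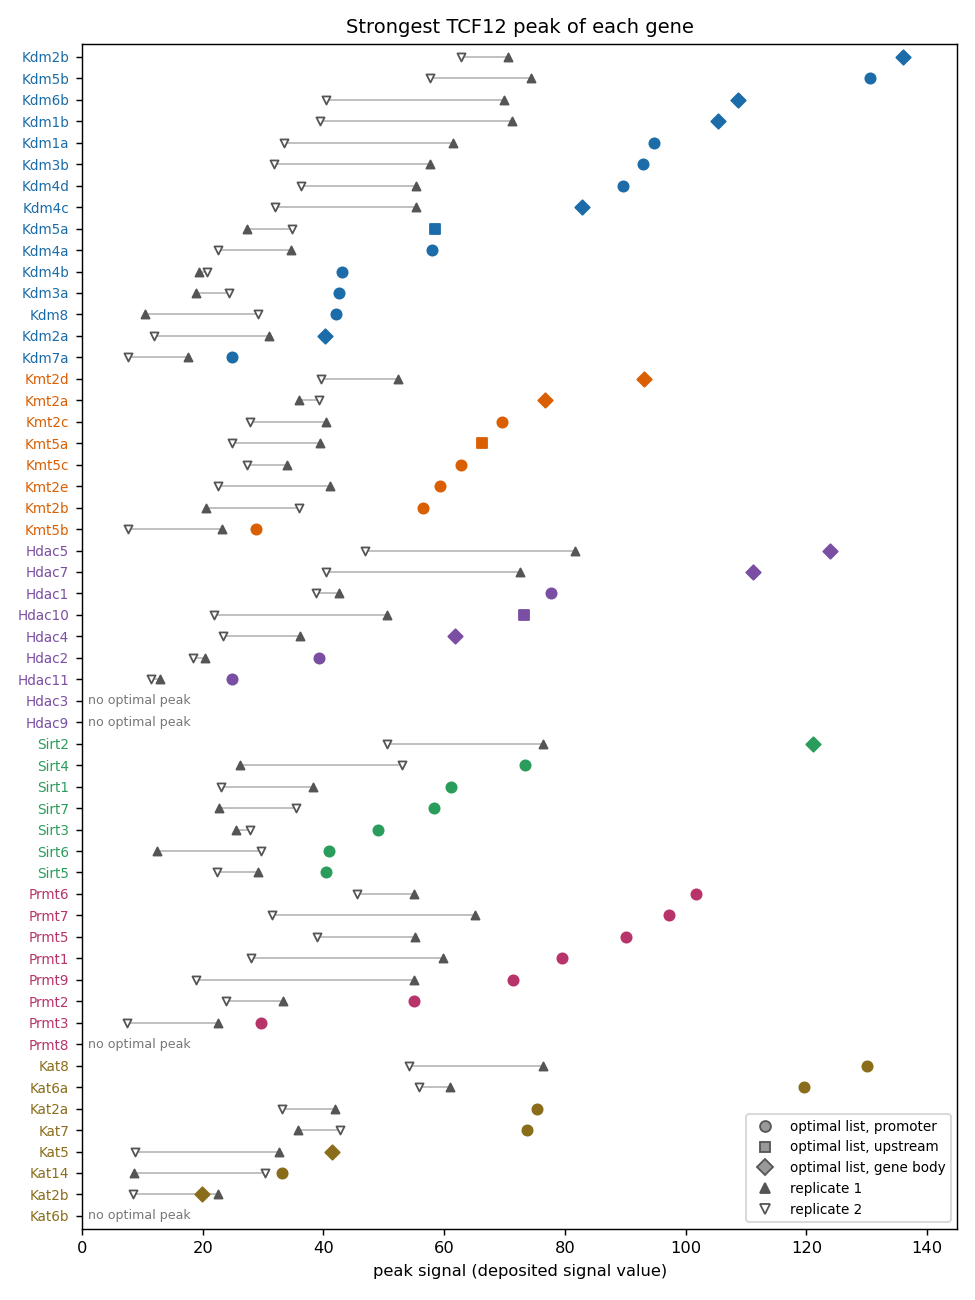
Signal of the strongest optimal peak of each gene (filled coloured symbols, by position: circle promoter, square upstream, diamond gene body) and of the matching peak in replicate 1 (upward triangle) and replicate 2 (downward triangle), on the horizontal axis. Genes are grouped by family and ordered by signal, from Kdm2b at 136 to Kat2b at 19.9. The optimal signal lies above both replicates at 50 genes and between them at Kat2b.

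The lysine demethylases all had a peak. Kdm2b, at chr5:122870664-122989270 on the minus strand, encodes a demethylase whose CXXC zinc finger brings a variant polycomb complex to unmethylated CpG islands. Its strongest peak had a signal of 136 in the optimal list, 70.6 in replicate 1 and 62.8 in replicate 2, the highest value of all 55 genes. That summit lay 39.9 kb inside the gene, and the matching mm9 window is the intronic sequence with 1 E-box shown above. The gene held 11 summits, or 10 groups, in 3 clusters: 5 between 8.16 kb upstream and 2.94 kb downstream of the 5' end, the intronic peak, and 5 between 88.9 and 107 kb inside. The last cluster begins at an annotated internal start, with a summit of signal 28.1 placed 24 bp before it. The mm9 gene model is longer, at 144.4 kb against 118.6 kb on mm10. In the mm9 list a summit of 134.8 lay 228 bp inside that longer model. Which summits count as the promoter or the window of Kdm2b thus depends on the gene model used.

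Kdm5b, at chr1:134560178-134632878 on the plus strand, encodes an eraser of the methyl mark of active promoters. Its promoter summit reached 130, with 74.4 in replicate 1 and 57.6 in replicate 2. A further summit 3.14 kb upstream had 75.1, with 34.3 and 38.4 in the replicates, and both summits lie within the annotated span of Mgat4e. Kdm6b, at chr11:69398508-69420367, encodes an eraser of the polycomb methyl mark. It had 9 summits in 6 groups and all lay in the gene body, between 1.41 and 11.4 kb from the 5' end. The strongest, 9.47 kb inside, had 109, with 69.9 in replicate 1 and 40.4 in replicate 2.

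Kdm1b, at chr13:47043373-47085279, encodes a flavin-dependent demethylase related to the Kdm1a product. Its strongest summit lay 1.37 kb inside the gene with a signal of 105, against 71.2 in replicate 1 and 39.4 in replicate 2. A weaker summit of 44.4 lay at the promoter, within 1 kb of the 5' end of the neighbouring gene Tpmt. Kdm1a, the partner of the CoREST corepressor, had a promoter summit of 94.7, with 61.5 and 33.5 in the replicates, 20 bp before the start. In Kdm5b, Kdm2b and Kdm1a the strongest summit was thus higher in replicate 1 than in replicate 2, as it was in 11 of the 15 Kdm genes. The same held in 39 of all 51 genes with a peak. Replicate 1 was higher at 85.7% of all autosomal optimal peaks, and the replicates have no common scale.

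The other 10 Kdm genes had strongest signals from 24.8 to 92.9. Kdm3b, on chromosome 18, led them with 92.9 at its promoter, followed by Kdm4d with 89.6 at a promoter it shares with Cwc15, and Kdm4c with 82.9. Kdm8 and Kdm7a stood at the low end with 42.0 and 24.8. At Kdm8 the replicates went apart, with 10.5 in replicate 1 and 29.2 in replicate 2. Kdm5a, Kdm3a and Kdm4b were also higher in replicate 2. Kdm2a, whose product is the closest relative of that of Kdm2b and also carries a CXXC zinc finger, had 3 summits, at most 40.3, and no promoter summit.

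All 8 lysine methyltransferase genes had a peak, and none reached 100. The Kmt2 genes encode the MLL family, whose main members methylate the histone lysine marked at promoters and enhancers. Kmt2d, at chr15:98831669-98874077, had the strongest peak at 93.0, with 52.4 in replicate 1 and 39.6 in replicate 2, 1.82 kb inside the gene. Its 2 upstream summits lay within 1 kb of the 5' end of Rhebl1. Kmt2a, at chr9:44803355-44881352, had 6 summits that spanned the first 14.4 kb of the gene and the promoter. The strongest of them, 12.5 kb inside, had 76.7, with 35.9 and 39.3 in the replicates, so replicate 2 was slightly the higher. Kmt2c had a single summit of 69.5, with 40.5 and 27.8, placed 906 bp upstream.

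The Kmt5 genes encode the enzymes that methylate histone H4. Kmt5a, at chr5:124439930-124462311, had 7 summits in 6 groups, of which the strongest, 6.68 kb upstream, had 66.3, with 39.4 and 24.8 in the replicates. Summits of 33.3 and 28.3 in its gene body lay 100 and 196 bp before annotated internal starts. Kmt2b, at chr7:30568855-30589056, had 6 summits, but 5 of them lay upstream inside Zbtb32 and at most 29.5 high. Its promoter summit had 56.5, with 20.6 in replicate 1 and 36 in replicate 2. Kmt5c, Kmt2e and Kmt5b had promoter summits of 62.9, 59.3 and 28.8.

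The histone deacetylases are given by class. Hdac5 and Hdac7 belong to class IIa, whose products shuttle between nucleus and cytoplasm and repress genes by binding MEF2 factors. Hdac5, at chr11:102195747-102230172, had its strongest summit 11.2 kb inside the gene with 124 in the optimal list, 81.7 in replicate 1 and 46.9 in replicate 2. The other 4 summits of the gene lay at or below 29.4. Hdac7, at chr15:97792661-97844502, had 12 summits, the most of any of the 55 genes in the optimal list, but in 10 groups, as many as Kdm2b. Under the conservative list it had 9 summits against 13 in Kdm2b and 11 in Kdm6b, and at an IDR of at most 0.01 it had 5 against 8 in Kdm2b. In replicate 1 alone it had 11 against 13 in Kdm2b, and in replicate 2 alone 10 against 11. Its strongest, 19.2 kb inside, had 111, with 72.6 and 40.5 in the replicates. The next had 91.8, with 59.9 and 33.8, at 18.4 kb, and the third had 62.9, with 37.8 and 24.2, at 23.1 kb. Neither gene had a summit within 1 kb of its 5' end.

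Hdac4, of the same class, had 4 summits in 3 groups, the strongest of 61.8, with 36.1 and 23.4 in the replicates, 14.9 kb inside and 500 bp before an annotated internal start. Hdac9, the remaining class IIa gene, had no optimal peak over its 870 kb span. Of the class I genes, Hdac1, at chr4:129516104-129542646, had 5 summits with 77.8 at the promoter, against 42.6 and 38.8 in the replicates. Hdac2 had 39.2 at its promoter, with 20.4 and 18.5, and Hdac3, on chromosome 18, had no optimal peak. Hdac10 had 1 summit of 73.2, with 50.5 and 21.8, 2.87 kb upstream inside Mapk12, and Hdac11 had a promoter summit of 24.9. In all 7 Hdac genes with a peak the strongest summit was higher in replicate 1, as were 85.7% of all autosomal optimal peaks.

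**Figure D3:**
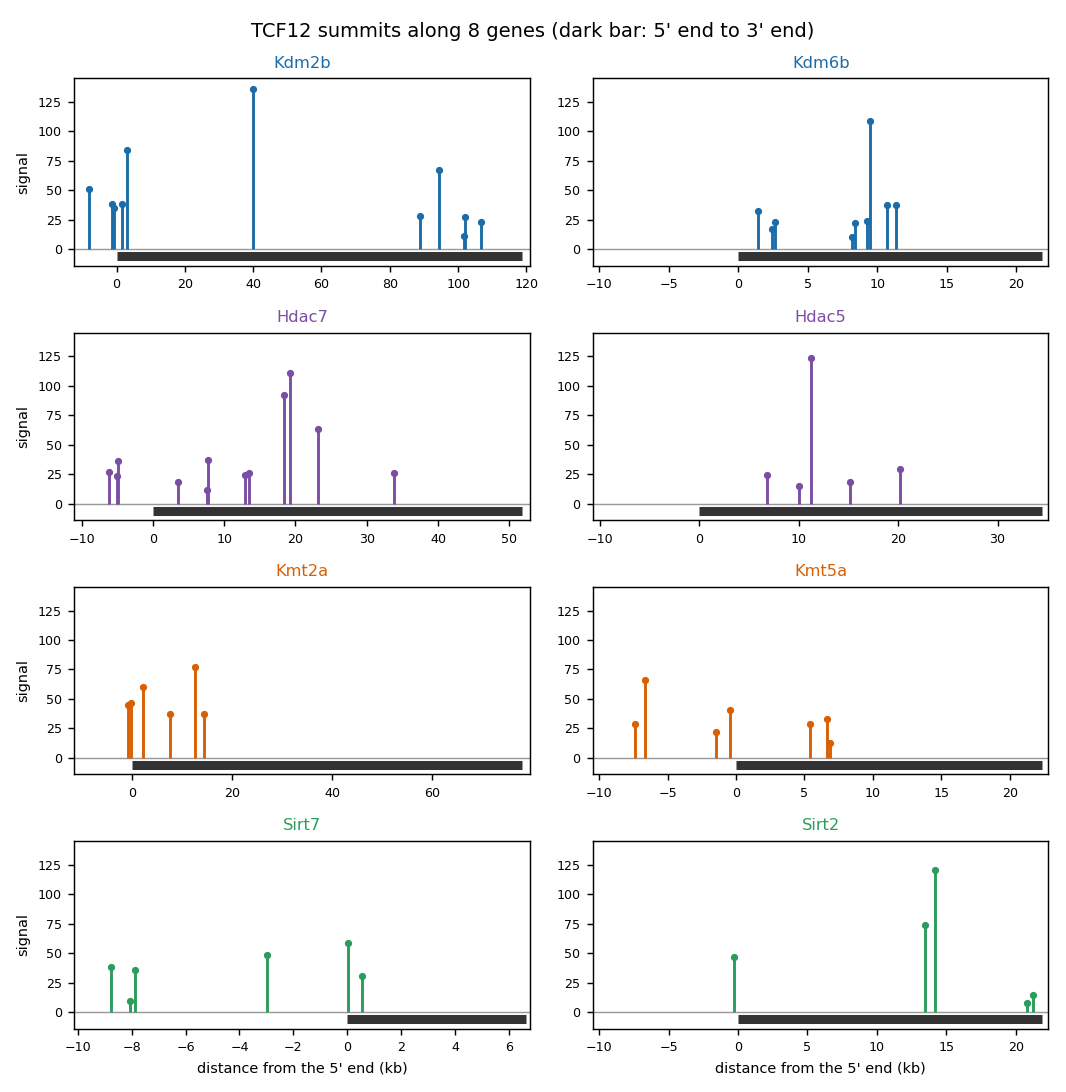
Height of each optimal summit (vertical axis, signal) against its distance from the 5' end in kb (horizontal axis, negative values upstream) along 8 genes with 5 or more summits, where the dark bar is the gene. In Hdac5, Hdac7 and Kdm6b the tallest summit stands inside the gene and no summit lies within 1 kb of the 5' end. Summits of Kdm2b, Hdac7, Kmt5a and Sirt7 reach more than 1 kb upstream.

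The 7 sirtuin genes, which encode NAD-dependent deacylases, all had a promoter summit. Sirt2, at chr7:28766752-28788665, had 5 summits, and the strongest, 14.2 kb inside, had 121, with 76.4 in replicate 1 and 50.5 in replicate 2. A second summit, 13.5 kb inside, had 73.8, and the promoter summit of 46.6 was closer to the 5' end of Nfkbib than to that of Sirt2. Sirt4, a mitochondrial sirtuin, had 4 summits. Its strongest, of 73.4, went against the general order of the replicates, with 26.2 in replicate 1 and 53.0 in replicate 2. Its upstream summit of 66.3 at the 5' end of Pxn had 55 in replicate 1 and 11.4 in replicate 2.

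Sirt1, a nuclear deacetylase, had 1 summit of 61.1, with 38.3 and 23.0 in the replicates, 20 bp after the start and next to the 2 CACGTG copies shown above. Sirt7, at chr11:120618371-120625014, had 6 summits, 4 of them upstream inside Mafg. The strongest was the promoter summit of 58.4, with 22.7 in replicate 1 and 35.5 in replicate 2. Sirt3, Sirt6 and Sirt5 had strongest signals of 49.1, 40.9 and 40.5. Sirt3 shares its promoter with Psmd13 and Sirt6 with Ankrd24. In 4 of the 7 genes, Sirt3, Sirt4, Sirt6 and Sirt7, the strongest summit was higher in replicate 2.

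The arginine methyltransferase genes had 10 summits in 7 of the 8 genes, and all 10 were promoter summits. Prmt6, at chr3:110246104-110250999, had 102, with 55 in replicate 1 and 45.5 in replicate 2, 21 bp before the start. Prmt7, at chr8:106211054-106251694, had 97.3, with 65.1 and 31.5, at a promoter shared with Slc7a6os. Prmt5, the main enzyme for symmetric arginine methylation, had 90.1, with 55.1 and 38.9, and Prmt1, the main enzyme for asymmetric methylation, had 79.5, with 59.8 and 28.0. Prmt9, Prmt2 and Prmt3 followed with 71.4, 55 and 29.6. All 7 strongest summits were higher in replicate 1, as were 85.7% of all autosomal optimal peaks. Prmt8, a membrane-bound enzyme of the brain, had no optimal peak.

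Of the 8 lysine acetyltransferase genes 7 had a peak. Kat8, at chr7:127912517-127925838, encodes the acetyltransferase of the MSL and NSL complexes. Its summit of 130, with 76.3 in replicate 1 and 54.2 in replicate 2, lay 9 bp after the start, and an upstream summit of 44.2 lay at the 5' end of Bckdk. Kat6a, at chr8:22859442-22943259, had 1 summit of 120, with 60.9 and 55.8, 101 bp after the start. Kat2a, the acetyltransferase of the SAGA complex, had 75.4 at its promoter, with 41.9 and 33.1. Kat7, at chr11:95271853-95310246, had 5 summits, the strongest of 73.8 with 35.8 in replicate 1 and 42.7 in replicate 2.

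The other 4 Kat genes stood lower. Kat2b, related to Kat2a, had a single summit of 19.9, the lowest strongest signal of the 51 genes, with 22.6 and 8.53 in the replicates. Kat6b, related to Kat6a, had no optimal peak. Kat5 had 41.5 and Kat14, which shares its promoter with Pet117, had 33.2, with 8.67 in replicate 1 and 30.3 in replicate 2.

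For the 4 genes without an optimal peak, the relaxed lists of single replicates, which include background, gave the strongest signal in the window. It was 12.4 in replicate 1 and 5.78 in replicate 2 for Hdac3, and 5.77 and 2.78 for Prmt8. Hdac9 had 11.2 and 12.8, and Kat6b had 25 and 14.1. Hdac9 and Kat6b did have a peak in the conservative list, so their absence depends on the list, whereas Hdac3 and Prmt8 had none under any list or window tried. In all, 47 genes had a peak under every list and with 10 or 5 kb upstream, and Hdac11, Kat14, Kdm7a and Prmt3 lost theirs under some.

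The relaxed lists of both replicates, which include background, held a peak overlapping 157 of the 161 optimal peaks. Over all autosomal optimal peaks they did so at 34349 of 35369, a similar share. The replicate 1 signal divided by that of replicate 2 had a median of 1.44 (interquartile range 1.03 to 2.02), and replicate 1 was higher at 119 summits (75.8%). Over all autosomal optimal peaks the median ratio was 1.66, and replicate 1 was higher at 85.7%. The ratio was lower at promoters than elsewhere both in these genes, at 1.31 against 1.59, and in all peaks, at 1.53 against 1.72. The log2 signals of the replicates correlated with a Pearson r of 0.58 and a Spearman rho of 0.60 over the 157 summits, against 0.71 and 0.70 over 34349 peaks. These are descriptions across peaks, and neighbouring summits often share 1 replicate peak and thus the same values. The signals of the replicates are on no common scale, so no ratio was read as a gain or a loss. The replicates are stated to be biological, and their spread is the only error available.

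**Figure D4:**
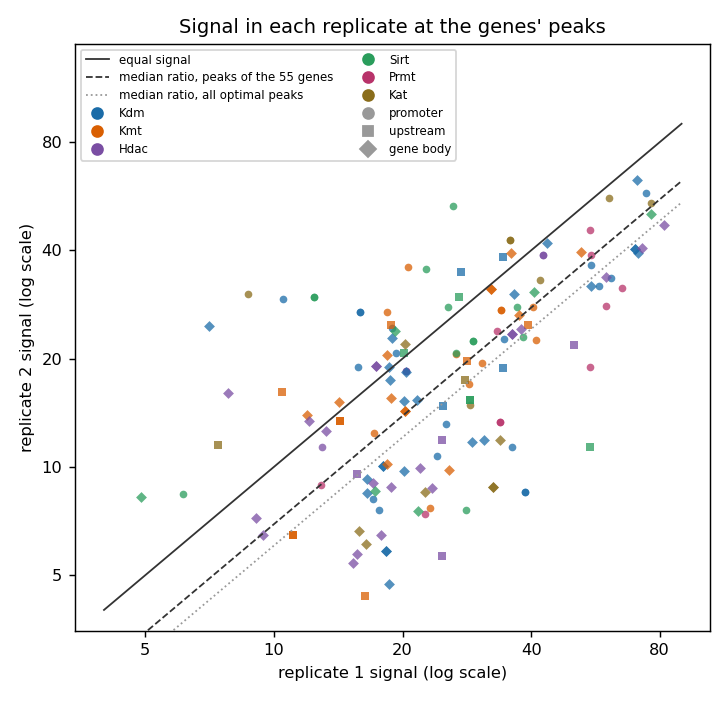
Signal in replicate 1 (horizontal, log scale) and replicate 2 (vertical, log scale) at the 157 summits found in both, coloured by family and shaped by position. The solid line is equal signal, the dashed line the median ratio of 1.44 for these summits and the dotted line that of 1.66 for all optimal peaks. Most points lie below the solid line, and 38 lie above it.

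Not every summit in a window belongs to the gene that names it. Of the 161 summits 31 lay nearer to the 5' end of another gene, and 17 lay within 1 kb of one, among them 11 of the 64 promoter summits. When each summit was given only to the gene with the nearest 5' end, Kdm2a, Kdm4d and Sirt2 had no peak left and Kat6b gained one, for 49 of 55 genes.

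Promoter summits of these genes lay less tightly on the 5' end than those of all genes. The median distance was 168 bp against 129 bp, and 29.7% lay within 100 bp against 43.8%. The 5' end is the outermost annotated one, and the difference was not tested.

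The motifs at summits were read on mm9, where the sequence is at hand, and each motif was counted on either strand wholly within 50 bp of the summit. All 55 genes were found in the GENCODE vM1 annotation, 16 of them by an older symbol. The mm9 list held 98 summits in the windows of 44 of them (80%), against 50% of all genes. Of these summits 52 (53.1%) were within 1 kb of a protein-coding gene's 5' end, 34 in introns, 7 in exons and 5 between genes. CAGCTG or CACCTG was present at 21 of 98 (21.4%, 14.5 to 30.5), against 28.3% of 17716 summits in any gene window. At promoter summits the share was 11.5% against 14.5%, and at the others 32.6% (15 of 46) against 39.5%. In introns either of the pair lay at 13 of 34 summits (38.2%, 23.9 to 55) against 40.7%, and in exons at 0 of 7 (up to 35.4%) against 35.3%. The exon summits include those of Sirt1 with signals of 80.6 and 37.0. The mm9 gene model of Sirt1 is 3.13 times as long as its mm10 span, and their place or inclusion depends on it.

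Away from promoters the E-box types were also counted singly. CAGCTG lay at 4 of 46 such summits (8.70%, 3.43 to 20.3) against 19.8% of all, and CACCTG at 13 of 46 (28.3%, 17.3 to 42.5) against 24.9%. An SP/KLF box, GGGCGG, lay at 26.5% of the 98 summits (18.8 to 36) against 18.9%. Each of these intervals, for motifs within 50 bp, includes the value over all genes. That was not so for any E-box, CANNTG, at 37 of the 98 summits (37.8%, 28.8 to 47.6) against 48.1%. Split by place, its shares were 23.1% (13.7 to 36.1) against 29.6% at promoters and 54.3% (40.2 to 67.8) against 63.2% elsewhere. The YY1 motif ATGGCGG away from promoters, at 2 of 46 (4.35%, 1.2 to 14.5) against 0.984%, also left out the value over all genes. Those 2 include a Sirt1 summit placed in an exon, 42.7 kb inside an mm9 gene model 3.13 times as long as the mm10 span. Its window ends with bases of the Sirt1 promoter shown above, so its place away from promoters, and this YY1 share, depend on that model. Within 25 bp of the summit CAGCTG or CACCTG lay at 15.3% (9.5 to 23.7) against 16.5%. Within 100 bp the share was 27.6% (19.7 to 37.1) against 41%, and there too the interval leaves out the value over all genes.

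**Figure D5:**
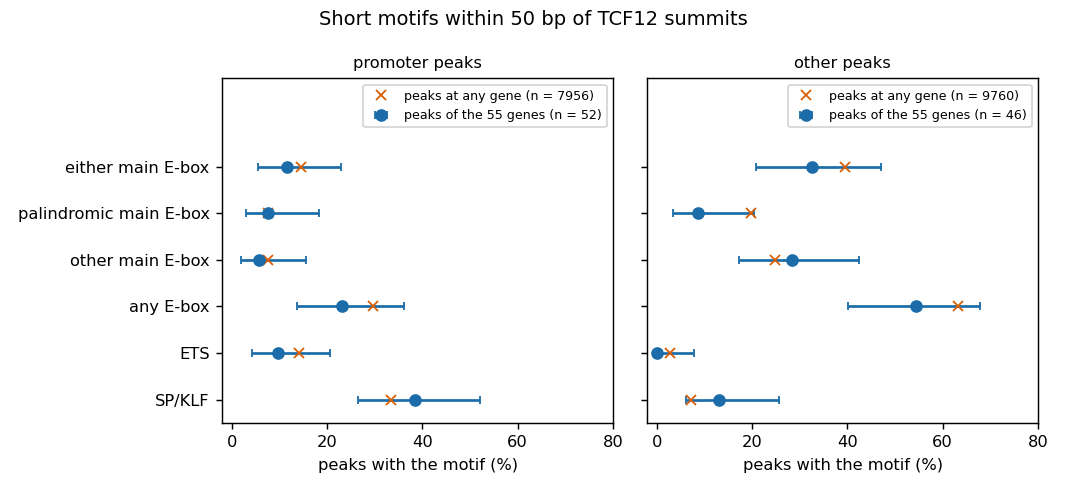
Share of mm9 summits with a motif within 50 bp, in percent, for the 55 genes (blue circles with 95% Wilson intervals) and for summits in the window of any gene (orange crosses), split into 52 promoter and 46 other summits. The palindromic main E-box is CAGCTG and the other is CACCTG. For the 6 motif rows drawn every cross falls within its interval, and the CAGCTG cross away from promoters (19.8%) lies near the upper end of its own (20.3%).

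A MEF2 site was searched after the windows of Hdac5 and Hdac7 had been read, so its count is a description of what was noticed. The 10-base MEF2 consensus lay within 50 bp of 4 of the 98 summits (4.08%, 1.6 to 10), against 0.745% of summits in any gene window, 0.214% of promoter summits and 1.18% of others. All 4 were in class IIa deacetylase genes, 2 in Hdac5 and 2 in Hdac7, out of 9 mm9 summits in that class, and 0 of the 89 summits of the other genes had one. Besides the windows shown, the remaining match lies at chr11:102091497-102091506 on mm9, at a summit of signal 40.7 placed 20 bp before the 5' end of Hdac5, where the optimal mm10 list has no summit. The match says only that these letters are present, and no MEF2 protein was measured.

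The promoter table held 44 of the 55 genes, and motifs were counted in its 300 bases, from 250 before to 50 after the start. CAGCTG or CACCTG was present in 8 of the 34 promoters with a summit (23.5%), against 27.6% of 6902 such promoters of all genes. The ETS motif CCGGAAG was in 9 of 34 (26.5%) against 22.5%, TGACGT in 7 of 34 (20.6%) against 13.4%, and GGGCGG in 23 of 34 (67.6%) against 67.6%. The E-boxes CACGTG and CATCTG were each in 8.82% of the 34, against 11.1% and 10.9%. The NFY box CCAAT was in 47.1% against 40.2%, the NRF1 motif GCGCATG in 8.82% against 8.59%, and the YY1 motif ATGGCGG and the PU.1 type motif GAGGAAG each in 5.88%, against 9.81% and 12.9%. Any E-box, CANNTG, was in 52.9% against 61.3%. The RUNX motif TGTGGTT and the octamer ATGCAAA were in 0 of the 34, against 3.51% and 3.4%. With or without a summit, they were in 0 of the 44 promoters, against 4.91% and 4.23% of 16456 promoters. With so few promoters these counts of 0 were not read as a lack.

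Modifier genes that the symbol rule leaves out, and genes of partner subunits, were counted in the same way. Of 25 other histone methyltransferase genes 24 had a peak, 21 at the promoter, led by Ehmt1 at 166 and Prdm9 at 126. Among 7 other demethylase genes 6 had a peak, 5 at the promoter, led by Riox1 at 94.9 and Jmjd1c at 77.6. Among 9 other acetyltransferase genes 8 had a peak, 7 at the promoter, led by Ncoa2 at 87.3 and Hat1 at 73.1. Corepressor subunits had a peak in 19 of 20 genes, 18 at the promoter, led by Sin3b at 138 and Ncor1 at 122. Polycomb, MLL and acetyltransferase complex subunits had one in 25 of 26, 22 at the promoter, led by Mtf2 at 281 and Epc1 at 217. Together 82 of these 87 genes had a peak (94.3%) and 73 a promoter summit (83.9%), against the 58.5% and 41.6% of all genes.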

How the data were processed

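TCF12 ChIP-seq peaks were analysed for 2 biological replicates of 1 group. The authors deposited relaxed peak lists per replicate, optimal and conservative IDR lists on mm10, and a list on mm9. The deposited signal is the peak caller's own value, and the deposited score is the scaled IDR score, with 830 or more standing for an IDR of at most 0.01. The names of the aligner and the caller were not given in the sources used here. Control reads were not analysed here, and depth is unknown.

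Summits were placed in gene windows of RefSeq genes on GRCm38.p6, and strand came from the RefSeq promoter table (16456 genes) or GENCODE vM1 (3904). Genes on the sex chromosomes fall outside the rule. Replicate values are the strongest relaxed peak overlapping an optimal peak by at least 1 bp. Sequence was read from NCBIM37 for mm9 peaks only, with the longer gene model where a symbol had 2. The code was tested on simulated data, in Python 3.11.15 with numpy 2.4.6 and pandas 2.3.3. With 1 group no test was run, and alternative lists, windows and single replicates were tried instead. All members could be named, with full values for up to 4 per family by signal and for those with 5 or more peaks. The members, lists and motifs were chosen with earlier results of these data known.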

Additional observations from a re-analysis of the deposited data

How the results depend on the processing

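No paired analysis was possible because the samples form 1 group. The share of the 55 genes with a window summit ranged from 89.1 to 96.4% over the other lists and windows tried. That of all genes ranged from 52.3 to 59.6%. The promoter share of the 55 genes ranged from 69.1 to 81.8%, where 500 bp and 2 kb promoters gave the ends. That of all genes ranged from 36.8 to 44.3%, and was 38.5 and 44.3% with 500 bp and 2 kb promoters. The median strongest signal was 69.5 in the optimal list and 31.3 to 39.0 when either replicate was left out, where that of all genes with a peak was 59.2 in the optimal list and 23.8 to 36.8 in the same settings. The cause was not tested. Of 32 such comparisons the other 30 moved by less than the limits set. Counting summits within 250 bp as 1, and leaving out Sirt1, whose mm9 gene model is 3.13 times as long as its mm10 span, were chosen after seeing the data. They gave 141 summits, a replicate ratio of 1.44 and an E-box share of 22.1%. For single genes, the number of peaks moved in 12 to 15 of 55 under the other lists, single replicates and nearest 5' ends, and in 2 with 5 kb upstream. Whether a gene had any peak changed in at most 4 of 55 under each of these. Without a known depth, a missing peak does not show that TCF12 is absent.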

Other observations

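The mm9 and mm10 lists did not hold the same genes. Of the 51 genes with an optimal mm10 peak, 7 had no summit in the mm9 list: Hdac11, Kat2b, Kdm7a, Kdm8, Kmt5b, Prmt1 and Prmt5. Most of these were weak on mm10, with strongest signals of 19.9 to 42.0, but Prmt1 and Prmt5 had promoter summits of 79.5 and 90.1. How the lists were thresholded is not given in the sources used here, and the cause was not tested.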
